A study of Mus musculus with 16 samples.

Results

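The perineuronal matrix genes described here are 10 genes whose products build or bind the hyaluronan matrix around neurons. They are the lecticans *Acan*, *Bcan*, *Ncan* and *Vcan*, the link proteins *Hapln1* and *Hapln4*, the tenascins *Tnr* and *Tnc*, the hyaluronan synthase *Has2* and the receptor phosphatase *Ptprz1*. They were taken as a fixed list of symbols, chosen with earlier results of these data known, out of 48397 gene symbols counted in each library. All 10 were among the 17038 genes with enough reads to be tested.

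The study compared RNA of primary hippocampal neurons of wild type CD1 mice, cultured from newborn pups and lysed at 17 days in vitro (DIV), in 16 libraries. At 10 and 13 DIV the 4 control cultures received 10-fold concentrated medium of immortalized Apoe-/- astrocytes, which holds no apoE, and 4 cultures each received such medium of immortalized astrocytes homozygous for human apoE2, apoE3 or apoE4 in place of it. The apoE levels of the media were evened out by adding Apoe-/- medium, and all cultures had been given cytosine arabinoside at 3 DIV against the growth of dividing non-neuronal cells. Each isoform came from its own astrocyte line, so the isoform and anything else that line secretes cannot be told apart.

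In brain, lecticans are large chondroitin sulfate proteoglycans that bind hyaluronan at one end and tenascins at the other, and link proteins lock the hyaluronan end in place. In the adult hippocampus this lattice condenses into perineuronal nets, best known around parvalbumin interneurons, while a looser form of it fills the space around synapses and dendrites. *Vcan* and *Tnc* belong to the early matrix of the developing brain and are also made by glia and fibroblasts, whereas *Acan*, *Tnr* and *Hapln4* are marks of the mature one.

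The promoter windows of *Tnc* and *Vcan* are shown because these were the tenascin and the lectican with blocked edgeR calls, and each runs from 250 bases before a RefSeq start to 50 bases after it on GRCm38.p6. The *Tnc* window lies on the minus strand at chr4:64046887-64047186, and that of *Vcan* on the minus strand at chr13:89742463-89742762. Capitals mark the motifs searched on both strands, here the octamer ATGCAAAT and the TATA box TATANAA, which do not overlap.
Tnc: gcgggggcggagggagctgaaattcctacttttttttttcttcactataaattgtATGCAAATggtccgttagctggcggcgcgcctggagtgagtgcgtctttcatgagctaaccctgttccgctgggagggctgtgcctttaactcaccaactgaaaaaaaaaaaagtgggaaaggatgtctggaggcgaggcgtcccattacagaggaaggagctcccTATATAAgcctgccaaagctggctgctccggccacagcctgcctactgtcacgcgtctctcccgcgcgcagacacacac
Vcan: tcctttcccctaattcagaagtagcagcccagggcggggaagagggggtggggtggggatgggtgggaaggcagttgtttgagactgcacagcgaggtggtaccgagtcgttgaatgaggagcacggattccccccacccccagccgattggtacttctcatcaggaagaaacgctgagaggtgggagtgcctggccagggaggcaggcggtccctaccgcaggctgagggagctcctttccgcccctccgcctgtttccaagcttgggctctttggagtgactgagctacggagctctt

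The *Tnc* window held 1 TATA box and 1 octamer, which 11.3% and 1.74% of all 32851 RefSeq windows of this length held, and the overlapping window of a second *Tnc* start just upstream held the same octamer. The *Vcan* window held neither, nor did it hold TGANTCA or GGAATG, the letters searched for AP-1 and TEAD and found in 7.81% and 14.7% of all windows. Over the 9 windows of 8 members, *Acan* alone held the TEAD letters, in 1 window, and the AP-1 letters were in 0 windows. *Has2* and *Hapln4* had no promoter window in the set used and were not searched. A match of letters is a description of the window and not a binding site.

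The libraries held 14087723 to 34248172 reads on genes, with a median of 22221832, and a further 38.4 to 73.7% of a library's reads fell on no single gene. This share was 73.7, 71.6 and 73.1% in apoE2, apoE3 and apoE4 number 1 against 61.8% in control 1, and it was lowest in apoE2 4 and apoE4 2, at 38.4 and 38.6%. The gene *Lars2* moved with it, taking 15, 12.5 and 12.2% of the reads on genes in the 3 treated number 1 libraries, 5.95% in control 1 and 0.69 and 0.359% in apoE2 4 and apoE4 2. Member calls that did not hold without number 1 or without one of these libraries are named beside each result. Of the cell markers, neuronal genes were high throughout, with *Map2* between 1150 and 3112 CPM, the read count scaled to a common library size, but the astrocyte gene *Gfap* also reached 189 to 3449 CPM, so that each library held astrocyte RNA. The oligodendrocyte lineage gene *Olig1* was at 25.8 to 255 CPM while *Sox10* and *Pdgfra*, which define its precursors, stayed under 3.31 CPM. Microglial and endothelial markers were low but not absent. The microglial *Csf1r* and *C1qa* ran from 1.75 to 7.15 and from 1.12 to 16.5 CPM, and the endothelial *Kdr* from 0.419 to 5.14 CPM. The endothelial *Cldn5* and the microglial *Tmem119* were at 0 in at least 1 library. From bulk RNA of such mixed cultures, fewer cells of a type and less RNA per cell cannot be told apart. Libraries that share a replicate number in the labels deviated together from their group means, and the number 2 library had the lowest summed astrocyte and oligodendrocyte lineage markers of each group. Members called are therefore counted both without and with the replicate number as a block. The blocked fit compares each treated library with the control library of the same number. The fold changes of several members, *Tnr*, *Ncan* and *Ptprz1* among them, are printed from the blocked fit.

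Per kilobase of exon, *Ncan* was by far the most abundant of the 10 genes in the control cultures, at 39.5 ± 8.16 CPM per kb (SD, n = 4), followed by *Hapln1* at 11.6 ± 1.88, *Tnr* at 9.97 ± 2.03, *Hapln4* at 8.40 ± 5.07, *Ptprz1* at 7.96 ± 2.73 and *Bcan* at 7.16 ± 2.24. *Acan* at 4.30 ± 0.536, *Tnc* at 4.06 ± 2.22, *Vcan* at 1.22 ± 0.457 and *Has2* at 0.227 ± 0.228 CPM per kb stood below them. The ranges over the 4 control libraries of neighbours in this order overlapped from *Hapln1* down to *Tnc*. *Ncan* stood clear of *Hapln1*, *Tnc* of *Vcan* (lowest 1.64 against highest 1.63) and *Vcan* of *Has2* (lowest 0.668 against highest 0.569). With apoE3, *Tnc* averaged 15.6 ± 12.4 CPM per kb, the second highest mean of the 10 genes in that group, though its libraries spread from 3.70 to 31.8.

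**Figure D1:**
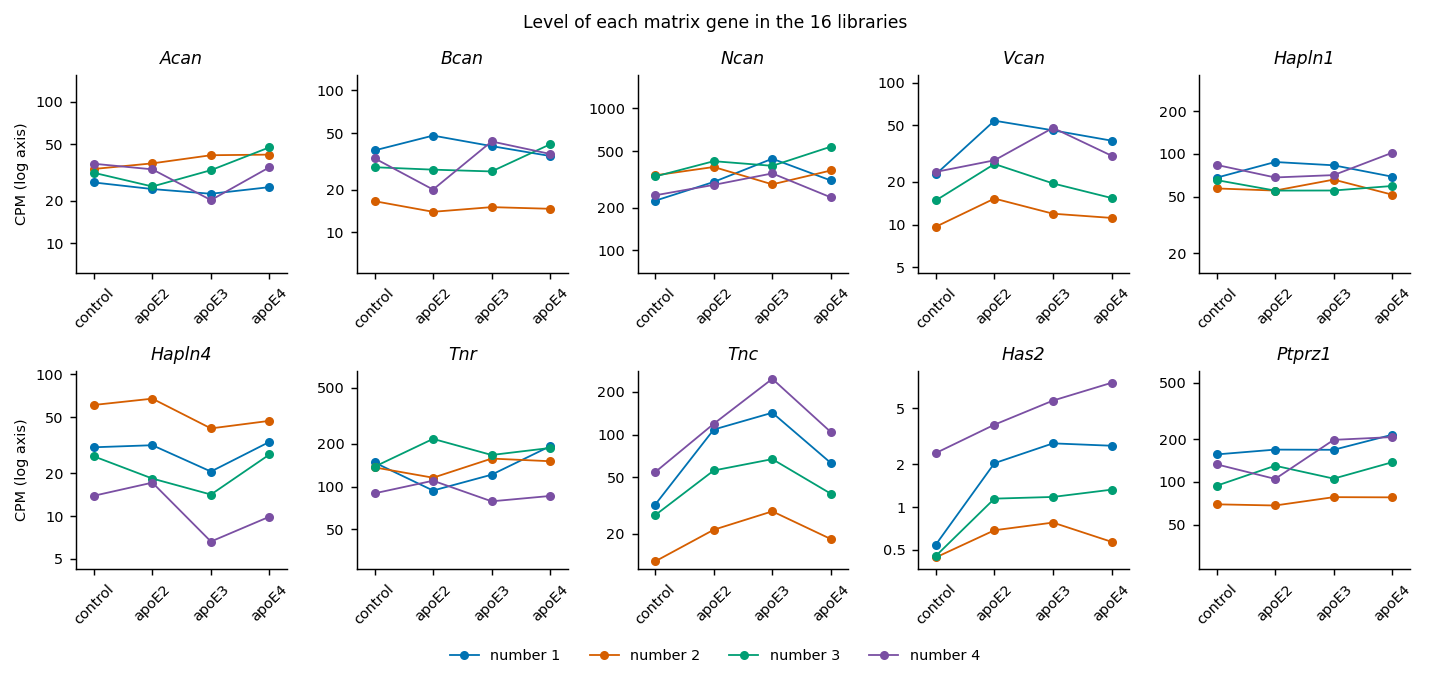
CPM of each gene (vertical log axis, spanning the same 25-fold range in every panel) in the control, apoE2, apoE3 and apoE4 groups, with 1 point per library and lines joining libraries of the same replicate number. For *Tnc* and *Has2* each treated point lies above the control point of its number, and number 2 is the lowest line of both.

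Without the block, edgeR's quasi-likelihood test with Benjamini-Hochberg adjustment over all tested genes called 0 of 10 members at an adjusted p under 0.05 with apoE2, apoE3 or apoE4 against the control, where it called 0%, 0.00587% and 0.194% of all tested genes. DESeq2 also called 0 members in each of these comparisons. At an unadjusted p under 0.05 edgeR passed 0, 1 and 0 members, the 1 being *Tnc* with apoE3, where 2.79%, 6.43% and 3.30% of all genes passed. By a criterion of at least a 2-fold change with an unadjusted p under 0.05, 0, 1 and 0 members passed for apoE2, apoE3 and apoE4, against 0.722%, 1.96% and 1.15% of all genes. The 1 was again *Tnc*, which no longer met it without the library apoE3 4. With the block 2, 2 and 1 members met this criterion, against 1.56%, 4.77% and 2.50% of all genes.

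With the replicate block, 2 of 10 members passed an adjusted p under 0.05 with apoE2 (*Tnc* and *Vcan*), 4 with apoE3 (*Tnc*, *Has2* and *Vcan* higher, *Hapln4* lower) and 2 with apoE4 (*Tnc* and *Has2*), against 1.73%, 11.7% and 3.30% of all tested genes. With apoE3 calls were also most frequent over all genes, at 1990 of 17038. The median log2 fold change of the 10 members in this fit was 0.06, 0.17 and 0.27 for apoE2, apoE3 and apoE4, and that of all tested genes was 0.01, 0.02 and 0.00 (−0.0017). The 3 comparisons share the 4 control libraries and are not independent of each other.

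**Figure D2:**
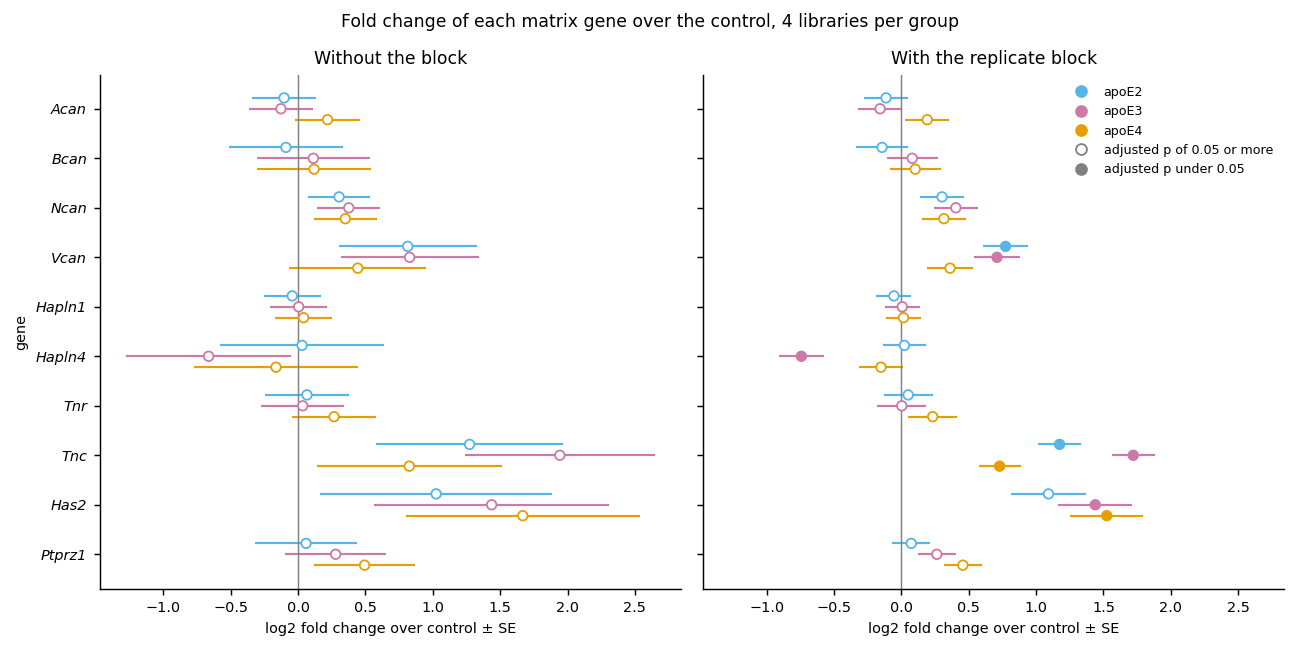
Log2 fold change over the control ± SE (horizontal axis) of each gene with apoE2, apoE3 and apoE4, from the fit without the block (left) and with the replicate block (right), n = 4 libraries per group. Filled points have an adjusted p under 0.05 over 17038 genes: none on the left, and on the right *Tnc* with each isoform, *Vcan* with apoE2 and apoE3, *Has2* with apoE3 and apoE4, and *Hapln4* with apoE3, the only one to the left of 0.

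Of the tenascins, *Tnc* (chr4:63959785-64047015, minus strand), a large glycoprotein of developing and injured tissue that neurons meet on glial surfaces, had the largest log2 fold change of the 10 genes with apoE2 and apoE3, while with apoE4 that of *Has2* was larger. In numbers 1 to 4 the control libraries had 32.1, 12.8, 27.0 and 54.3 CPM, the apoE2 libraries 108, 21.3, 55.8 and 119 CPM, the apoE3 libraries 142, 28.7, 67.1 and 247 CPM, and the apoE4 libraries 63.0, 18.3, 38.2 and 104 CPM. Number 2 was the lowest and number 4 the highest in every group, so the groups overlapped, yet within each number the 3 treated libraries stood above the control. The ratio to the control library of the same number was 1.67 to 3.38 with apoE2, 2.25 to 4.55 with apoE3 and 1.42 to 1.97 with apoE4.

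Without the block, the log2 fold changes of *Tnc* were 1.27 ± 0.69 (SE), 1.94 ± 0.70 and 0.83 ± 0.69 for apoE2, apoE3 and apoE4, with edgeR adjusted p of 1, 0.745 and 1.00 (0.9998). With the replicate block the values were 1.17 ± 0.16, 1.72 ± 0.16 and 0.73 ± 0.16, with edgeR adjusted p of 0.00294, 4.04e-05 and 0.0173, and *Tnc* was higher in 4 of 4 pairs with each isoform. The rise of *Tnc* with apoE3 kept its call in all 16 blocked fits that leave out 1 library and in all 4 that leave out a whole number. The apoE2 call was kept in 16 of 16 and lost only without number 1, while the apoE4 call was lost without any one of control 1, control 4, apoE4 2 and apoE4 4, with values of 0.59 to 0.85 over the 16 fits, and without number 1 or number 3. Of its exons, 2.26% lie over the gene *8030451A03Rik* on the other strand, and whether counting used the strand is not stated.

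*Tnr* (chr1:159523769-159931729, plus strand), the tenascin that cross-links lecticans in mature nets, showed no such pattern. The control libraries had 148, 137, 138 and 89.8 CPM and the apoE2 libraries 93.9, 116, 217 and 110 CPM. With apoE3 they had 121, 158, 167 and 78.9 CPM and with apoE4 193, 151, 188 and 86.0 CPM, so the groups lay over one another. Its log2 fold changes with the block were 0.05 ± 0.18, 0.00 ± 0.18 (0.0032) and 0.23 ± 0.18 for apoE2, apoE3 and apoE4, with edgeR adjusted p of 0.953, 0.994 and 0.561. Of its exons, 3.44% lie over *Gm38039* on the other strand.

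Among the lecticans, *Vcan* (chr13:89655312-89742509, minus strand), which encodes versican, was the member with calls. The control libraries had 22.6, 9.66, 14.8 and 23.5 CPM in numbers 1 to 4, against 54.0, 15.2, 26.7 and 28.4 CPM with apoE2, 46.2, 11.9, 19.5 and 48.0 CPM with apoE3 and 39.0, 11.1, 15.4 and 30.6 CPM with apoE4. The groups overlapped and number 2 was again the lowest in each, while every treated library exceeded the control of its number. With the block the log2 fold change was 0.77 ± 0.17 with apoE2 and 0.71 ± 0.17 with apoE3, with edgeR adjusted p of 0.0313 and 0.0142, and 0.36 ± 0.17 with apoE4, with an edgeR adjusted p of 0.297. Without the block the values were 0.81, 0.83 and 0.44 with SE of 0.51 and none passed.

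The apoE2 call of *Vcan* was kept in 9 of 16 blocked fits without 1 library. It was lost without any one of the 4 control libraries, apoE2 1, apoE2 2 and apoE2 3, with adjusted p up to 0.156, and without number 1, 2 or 3. The apoE3 call was kept in 14 of 16 and lost without control 1 or apoE3 4, with a log2 fold change of 0.52 to 0.80 over these fits, and it was also lost without number 1.

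The brain lectican *Ncan* (chr8:70093085-70120873, minus strand), which encodes neurocan, was per kilobase the most abundant member in every group. The control libraries had 223, 337, 331 and 244 CPM, and those with apoE2 303, 386, 424 and 289 CPM. With apoE3 the libraries had 442, 291, 394 and 348 CPM and with apoE4 310, 365, 537 and 236 CPM. Each treated group had a higher mean than the control, 351 ± 65.3, 369 ± 64.2 and 362 ± 128 CPM against 284 ± 58.7 CPM (SD, n = 4), the ratio to the control of the same number was above 1 in 4 of 4 pairs with apoE2 and in 3 of 4 with apoE3 and with apoE4, and the groups overlapped. Its log2 fold changes with the block were 0.30 ± 0.16, 0.40 ± 0.16 and 0.32 ± 0.16 with edgeR adjusted p of 0.462, 0.120 and 0.348.

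*Bcan* (chr3:87987531-88000230, minus strand), which encodes the brain-specific brevican of astrocytes and precursor cells, had 37.8, 16.6, 28.8 and 33.3 CPM in the control libraries and 48.1, 13.9, 27.7 and 20.02 CPM with apoE2. It had 40.5, 15.05, 26.9 and 43.7 CPM with apoE3 and 34.5, 14.7, 41.7 and 35.7 CPM with apoE4. The number 2 library was the lowest of each group and no isoform moved the other numbers one way. With the block the log2 fold changes were −0.14 ± 0.19, 0.08 ± 0.19 and 0.10 ± 0.19 with edgeR adjusted p of 0.831, 0.819 and 0.836.

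*Acan* (chr7:79053483-79115099, plus strand), which encodes aggrecan, the lectican that marks perineuronal nets, had 26.9, 33.5, 31.5 and 36.4 CPM in the control libraries and 24.2, 36.7, 25.2 and 33.3 CPM with apoE2. The apoE3 libraries had 22.4, 41.9, 32.8 and 20.2 CPM and the apoE4 libraries 24.9, 42.3, 47.6 and 34.4 CPM. The control libraries lay closest together and the treated ones spread to both sides of them. Its log2 fold changes with the block were −0.11 ± 0.16, −0.16 ± 0.16 and 0.19 ± 0.16, with edgeR adjusted p of 0.842, 0.570 and 0.595.

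Of the link proteins, *Hapln4* (chr8:70083457-70090862, plus strand), which ties brevican into the matrix around synapses of inhibitory neurons, was the only member called lower. The control libraries had 30.6, 60.8, 26.4 and 13.9 CPM, those with apoE2 31.6, 67.4, 18.4 and 17.2 CPM, those with apoE3 20.6, 41.6, 14.2 and 6.63 CPM and those with apoE4 33.4, 47.0, 27.2 and 9.92 CPM. Number 2 was here the highest and number 4 the lowest in every group, the reverse of *Tnc*, and the groups overlapped. With apoE3 the ratio to the control library of the same number was 0.476 to 0.684, lower in 4 of 4 pairs, and *Hapln4* fell by 0.74 ± 0.17 on the log2 scale with the block (edgeR adjusted p = 0.0110), a 1.67-fold decrease. Without the block the value was −0.66 ± 0.61 (edgeR adjusted p = 0.815). The blocked call was kept without each of the 16 libraries and was lost without number 1. With apoE2 and apoE4 the blocked log2 fold changes were 0.02 ± 0.16 and −0.15 ± 0.16, with edgeR adjusted p of 0.979 and 0.688.

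*Hapln1* (chr13:89539796-89611652, plus strand), the link protein of cartilage and of perineuronal nets, was the steadiest member. It ranged from 51.6 to 102 CPM over all 16 libraries, a 1.98-fold range, with group means of 68.5 ± 11.1, 66.5 ± 15.4, 68.8 ± 11.6 and 70.5 ± 22.1 CPM in control, apoE2, apoE3 and apoE4 (SD, n = 4). Its blocked log2 fold changes were −0.05 ± 0.13, 0.01 ± 0.13 and 0.02 ± 0.13, with edgeR adjusted p of 0.920, 0.982 and 0.969. The sign of values this near 0 depends on the scaling, as set out in the closing section.

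Link proteins and lecticans lie side by side in the genome, with *Hapln4* 2.22 kb from *Ncan* and *Hapln1* 43.7 kb from *Vcan*. Neighbours had unlike values in these cultures: with apoE3 and the block, *Ncan* had a log2 fold change of 0.40 where *Hapln4* had −0.74, and *Vcan* 0.71 where *Hapln1* had 0.01. The difference between neighbours was not tested. The remaining pairs are *Bcan* with *Hapln2*, 21.5 kb apart, and *Acan* with *Hapln3*. *Hapln2* had 78 reads over 16 libraries and was not tested, and *Hapln3* had a blocked log2 fold change of 0.62 ± 0.38 with apoE3 (edgeR adjusted p = 0.316).

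*Has2* (chr15:56665627-56694539, minus strand), which makes long hyaluronan chains at the cell surface, was the rarest member, with 11 to 150 reads per library. The control libraries had 0.546, 0.443, 0.454 and 2.41 CPM, and those with apoE2 2.04, 0.688, 1.15 and 3.81 CPM. With apoE3 the libraries had 2.82, 0.779, 1.18 and 5.64 CPM and with apoE4 2.71, 0.570, 1.33 and 7.53 CPM. Control number 4 lay at over 4 times the other control libraries, so the groups overlapped, but each treated library exceeded the control of its number with all 3 isoforms.

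The blocked log2 fold change of *Has2* was 1.44 ± 0.27 with apoE3 and 1.52 ± 0.27 with apoE4, with edgeR adjusted p of 0.00447 and 0.00521, and 1.09 ± 0.28 with apoE2, with an edgeR adjusted p of 0.0610. DESeq2 with the block called it with apoE2 too. Without the block the values were 1.02 ± 0.86, 1.44 ± 0.87 and 1.67 ± 0.87 for apoE2, apoE3 and apoE4, and none passed. The apoE4 call was lost without apoE4 4 (adjusted p 0.0505 by edgeR), without number 1 and without number 3, and the apoE3 call without number 1. The antisense gene *Has2os* covers 4.29% of the exons of *Has2*.

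*Ptprz1* (chr6:22875502-23052916, plus strand), a receptor phosphatase whose secreted form phosphacan is itself a proteoglycan of the matrix and binds tenascins, had 156, 69.6, 94.1 and 133 CPM in the control libraries and 169, 68.3, 130 and 105 CPM with apoE2. The apoE3 libraries had 169, 78.2, 106 and 198 CPM and the apoE4 libraries 215, 77.9, 138 and 207 CPM. It was above the control of the same number in 4 of 4 pairs with apoE3 and with apoE4 and in 2 of 4 with apoE2, and number 2 was the lowest in each group. The blocked log2 fold changes were 0.07 ± 0.14, 0.26 ± 0.14 and 0.46 ± 0.14, and the edgeR adjusted p of 0.897, 0.240 and 0.0971 did not pass.

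For each member, the replicate numbers held more of the spread of log2 CPM over the 16 libraries than the groups did. They held 42.1% of the sum of squares of *Ncan* at the least and 82.0% of that of *Hapln4* at the most, and 67.8% of that of *Tnc*. The groups held most for *Tnc* (29.3%) and *Has2* (21.7%) and least for *Hapln1* (0.883%). In *Tnc*, *Has2*, *Vcan*, *Bcan* and *Ptprz1* the number 2 library was the lowest of all 4 groups, and in *Hapln4* it was the highest of all 4.

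**Figure D3:**
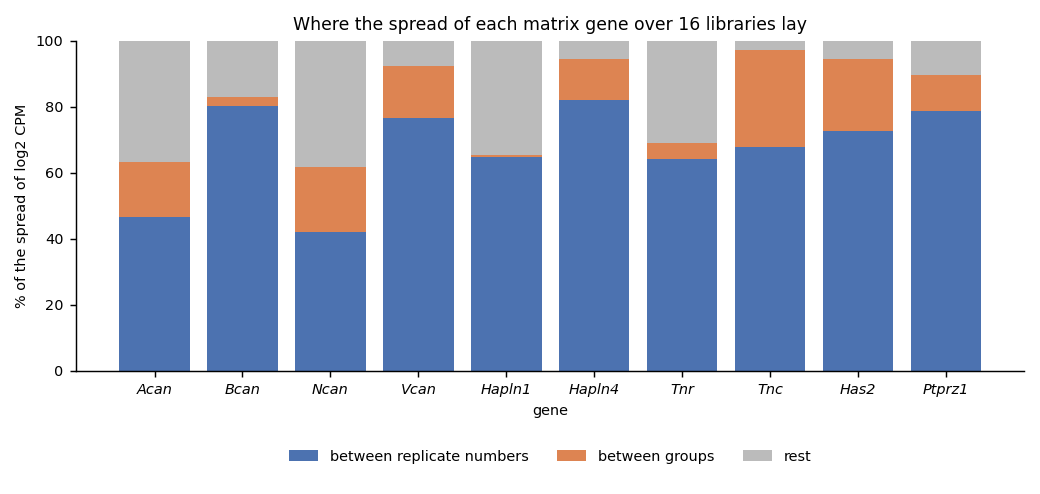
Percent of the sum of squares of log2 CPM over 16 libraries (vertical axis) that lay between replicate numbers, between the 4 groups and in the rest, for each gene. The share between numbers runs from 42.1% (*Ncan*) to 82.0% (*Hapln4*), and the share between groups is largest for *Tnc*, at 29.3%.

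Compared with each other by the same test, the isoforms differed at an adjusted p under 0.05 in 0 of 10 members without the block, where 0% of all tested genes differed between apoE3 and apoE2, 0.252% between apoE4 and apoE2 and 0.147% between apoE4 and apoE3. No member had an unadjusted p under 0.05 in these edgeR fits, where 2.28%, 5.34% and 4.70% of all genes did, and DESeq2 called 0 members. With the block, 1 member differed between apoE3 and apoE2, 0 between apoE4 and apoE2 and 1 between apoE4 and apoE3, against 1.31%, 4.44% and 1.76% of all tested genes. For the pair with 0 calls, 3 members had an unadjusted p under 0.05 by edgeR, as 18.0% of all genes did, and DESeq2 with the block called 0.

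The difference between apoE4 and apoE3 was in *Tnc*, which was lower with apoE4 by 0.99 ± 0.15 on the log2 scale, a 1.99-fold difference (edgeR adjusted p = 0.00355, lower in 4 of 4 pairs). This call was kept in all 16 blocked fits without 1 library and all 4 without a number. *Tnc* with apoE2 lay between the others: apoE3 exceeded apoE2 by 0.55 ± 0.15 on the log2 scale (edgeR adjusted p = 0.0923) and apoE4 lay below apoE2 at −0.45 ± 0.15 (edgeR adjusted p = 0.126), and neither difference passed with edgeR, while DESeq2 with the block called the first.

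The difference between apoE3 and apoE2 was in *Hapln4*, lower with apoE3 at −0.76 ± 0.17 (edgeR adjusted p = 0.0389, lower in 4 of 4 pairs). It was kept in 9 of 16 blocked fits without 1 library and in 0 of 4 without a number. It was lost without any one of control 3, control 4, apoE2 2, apoE2 4, apoE3 1, apoE3 3 and apoE3 4, with adjusted p up to 0.123. Between apoE4 and apoE3 *Hapln4* had 0.59 ± 0.17 (edgeR adjusted p = 0.0999, called by DESeq2 with the block) and between apoE4 and apoE2 −0.17 ± 0.16 (edgeR adjusted p = 0.631). For *Has2* the isoforms were not told apart, with blocked log2 differences of 0.35 ± 0.25, 0.43 ± 0.25 and 0.09 ± 0.25 (edgeR adjusted p of 0.532, 0.391 and 0.902) for apoE3 over apoE2, apoE4 over apoE2 and apoE4 over apoE3. *Vcan* had −0.06 ± 0.16, −0.41 ± 0.17 and −0.35 ± 0.17 in the same order, with edgeR adjusted p of 0.893, 0.194 and 0.316.

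Markers of other cells moved beside these genes. The summed level of 10 astrocyte markers was 2441, 1529, 2750 and 3469 CPM in the control libraries, 3592, 1418, 3160 and 3263 CPM with apoE2, 5026, 1856, 3614 and 7350 CPM with apoE3 and 3901, 1696, 3931 and 6021 CPM with apoE4. With the block, 0, 9 and 4 of the 10 astrocyte markers were called higher with apoE2, apoE3 and apoE4 and 0 lower. Over all tested genes the same fit called 1.73%, 11.7% and 3.30%, shares that also apply to the marker lists below. The astrocyte counts were 0, 2 and 0 without number 1, and 5, 9 and 7 without apoE2 4. The shares of all genes called in such smaller fits are not given here for any list. *Gfap* and *Slc1a2* weigh most in the astrocyte sum, with medians of 1218 and 838 CPM over the libraries. *Slc1a2* ran from 506 to 1346 CPM where *Gfap* ran from 189 to 3449 CPM, so the ratio of the sum need not be that of a single marker. The ratio of the summed astrocyte level to the control of the same number was 1.21 to 2.12 with apoE3 and 1.11 to 1.74 with apoE4, below that of *Tnc* in each of these pairs but apoE4 number 3 (1.43 against 1.42 for *Tnc*), and it was 0.927 to 1.47 with apoE2, where *Tnc* was 1.67 to 3.38 times its control. The ratios of *Vcan* in numbers 1 to 4 were 2.38, 1.58, 1.81 and 1.21 with apoE2, above the astrocyte sum in each pair (1.47, 0.927, 1.15 and 0.941). With apoE3 they were 2.04, 1.24, 1.32 and 2.04, close to those of the astrocyte sum, 2.06, 1.21, 1.31 and 2.12. With apoE4 they were 1.72, 1.15, 1.04 and 1.30, above the astrocyte sum in numbers 1 and 2 (1.60 and 1.11) and below it in numbers 3 and 4 (1.43 and 1.74).

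Of the 7 tested oligodendrocyte precursor markers, 5 were called higher with apoE3 and 0 with apoE2 or apoE4, with summed levels of 44.2 to 189 CPM in the control, 51.6 to 324 CPM with apoE2, 62.4 to 312 CPM with apoE3 and 48.2 to 222 CPM with apoE4. This sum is mostly *Olig1*, *Olig2* and *Lhfpl3*, with medians of 79.45, 21.7 and 16.1 CPM over the libraries. *Pdgfra* and *Sox10* had medians of 0.87 and 0.67 CPM, so the sum hardly reflects them. The 8 fibroblast and mural markers, 2 of them called higher with apoE3 and 1 with apoE4, summed to 23.3 to 272, 28.01 to 224, 31.4 to 519 and 30.2 to 458 CPM in the same order. For 6 dividing cell markers the sums were 7.49 to 18.2, 19.6 to 29.2, 26.7 to 40.7 and 12.3 to 29.9 CPM, with 1 called higher with apoE2 and 1 with apoE3. Like *Tnc*, *Has2* and *Vcan*, the dividing cell sum was above the control of the same number in 4 of 4 pairs with each isoform. Its ratios were 1.61 to 2.67 with apoE2, 2.07 to 5.44 with apoE3 and 1.325 to 2.13 with apoE4. Without number 1 the precursor markers called with apoE3 numbered 1, the fibroblast and mural ones 0 with each isoform. Without apoE2 4 the fibroblast and mural counts were 2, 5 and 5. Number 2 had the lowest sums of the astrocyte, oligodendrocyte precursor, oligodendrocyte and fibroblast lists in each group. Their part in the differences of *Tnc*, *Has2* and *Vcan* was not tested.

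The 8 neuron markers summed to 4170 to 6572, 4545 to 7001, 3128 to 6621 and 3426 to 6749 CPM in control, apoE2, apoE3 and apoE4. With the block, 1 was called higher and 2 lower with apoE3, where *Hapln4* fell, and 0 with the other isoforms, and without number 1 the apoE3 count was 0. The 8 markers of GABAergic neurons, parvalbumin cells among them, summed to 395 to 675, 335 to 641, 328 to 523 and 421 to 678 CPM. They were below the control in 4 of 4 pairs with apoE2 and with apoE3, with 1 marker called higher and 2 lower with apoE3. The part of these neurons in the lower *Hapln4* was not tested. The 6 oligodendrocyte markers summed to 91.6 to 670 CPM with 2 called higher with apoE3, the 6 microglia markers to 5.83 to 29.1 CPM with 0 called, and the 5 endothelial markers, of which 3 could be tested, to 1.60 to 8.80 CPM with 1 called higher with apoE3 and 1 with apoE4. Without number 1, 0 oligodendrocyte and 0 endothelial markers were called, and 1 GABAergic marker, lower with apoE3.

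**Figure D4:**
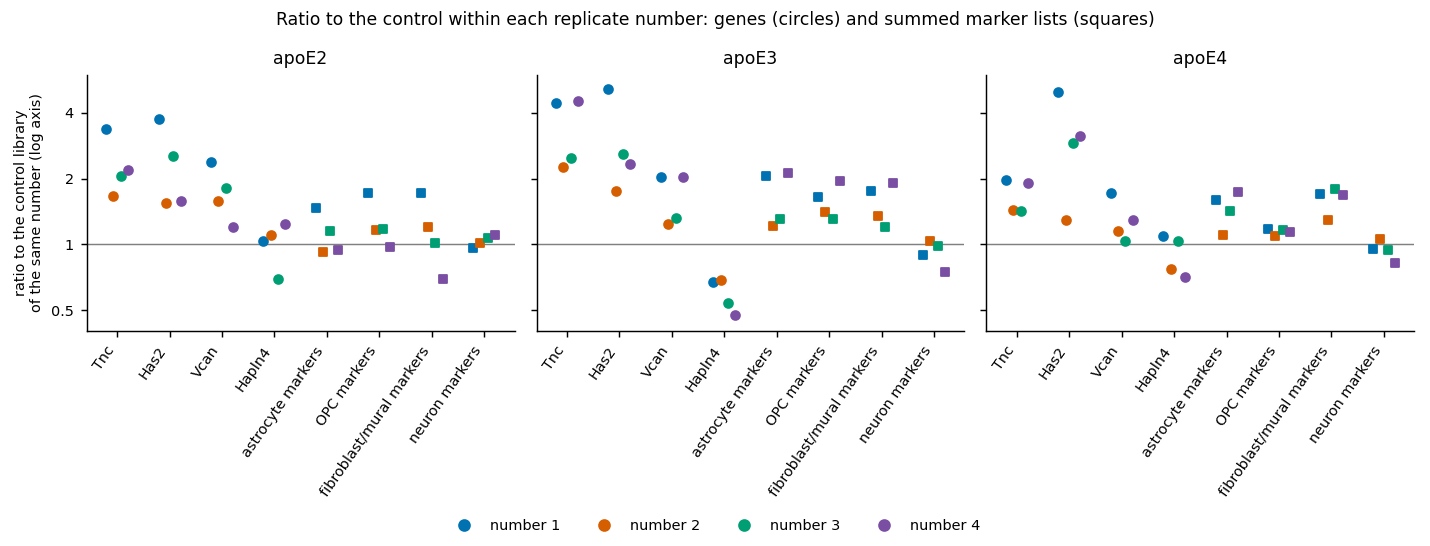
Ratio of each treated library to the control library of the same replicate number (vertical log axis) with apoE2, apoE3 and apoE4, for 4 genes (circles) and the summed CPM of 4 marker lists (squares, OPC standing for the oligodendrocyte precursor list, whose sum is mostly *Olig1*). *Tnc*, *Has2* and *Vcan* lie above 1 in all 12 pairs each, *Hapln4* lies below 1 in all 4 apoE3 pairs, and with apoE3 the astrocyte markers lie above 1 in 4 of 4 pairs, at 1.21 to 2.12.

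Other genes that build, cut or bind this matrix were taken as a list of 86, of which 83 were tested and *Has1*, *Hapln2* and *Chst13* had too few reads. Without the block edgeR called 0 of them with each isoform, with 4, 14 and 1 at an unadjusted p under 0.05, where 2.79%, 6.43% and 3.30% of all genes passed, and DESeq2 called 1, *Chst11* with apoE3. With the block edgeR called 9 for apoE2, 8 of them higher, 28 for apoE3, 24 of them higher, and 6 for apoE4, all higher, which is 10.8%, 33.7% and 7.23% of the 83, where 1.73%, 11.7% and 3.30% of all tested genes were called. Over all genes, 200 of 294, 1354 of 1990 and 541 of 563 of these calls were higher. The list was chosen with earlier results of these data known, so its shares describe it and do not test it. The median blocked log2 fold change of the 83 genes was 0.07, 0.17 and 0.12. The apoE2 count fell to between 1 and 3 without any one of control 1, control 3, control 4, apoE2 1, apoE2 2 and apoE2 3, and the apoE3 count to 15, 16 and 17 without control 1, apoE3 1 and apoE3 4. Without number 1, and so with 4 libraries fewer, the counts were 1, 10 and 2.

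*Cd44*, the main cell surface receptor of hyaluronan, had the smallest or second smallest p of the list with each isoform. Its control libraries had 39.0, 16.02, 29.4 and 94.2 CPM and its apoE3 libraries 152, 42.8, 75.3 and 247 CPM, and its blocked log2 fold changes were 0.89 ± 0.17, 1.52 ± 0.17 and 1.08 ± 0.17 with apoE2, apoE3 and apoE4, with edgeR adjusted p of 0.0151, 1.59e-04 and 0.00175. *Timp1*, an inhibitor of the metalloproteases that cut the matrix, was at 6.09, 1.41, 8.38 and 19.2 CPM in the control and 44.9, 6.52, 24.5 and 74.0 CPM with apoE3, with blocked values of 1.66 ± 0.23, 2.08 ± 0.23 and 1.37 ± 0.23 and edgeR adjusted p of 0.00379, 1.59e-04 and 0.00378. Both were higher in 4 of 4 pairs with each isoform, and both had their lowest level of each group in number 2, as *Tnc* did.

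The integrin gene *Itgav*, whose product is a receptor for tenascin C and other matrix proteins, had blocked log2 fold changes of 0.67 ± 0.13, 0.98 ± 0.13 and 0.70 ± 0.13 with edgeR adjusted p of 0.0206, 5.85e-04 and 0.00770. *Bgn*, the small proteoglycan biglycan, had blocked values of 1.24 ± 0.25, 1.18 ± 0.25 and 1.36 ± 0.25 (edgeR adjusted p of 0.0209, 0.00771 and 0.00610) from as little as 0.419 CPM in a control library, and with apoE2 was higher in 3 of 4 pairs. *Chst11*, which sulfates chondroitin chains, was called with apoE2 at 0.37 ± 0.08 (edgeR adjusted p = 0.0373) and with apoE3 at 0.53 ± 0.08 (edgeR adjusted p = 0.00155), with 87.5, 99.9, 90.6 and 112 CPM in the control and 144, 116, 136 and 169 CPM with apoE3. Unlike those of *Cd44* and *Timp1*, the control and apoE3 libraries of *Chst11* did not overlap. Without number 1 the calls of *Timp1* held with all 3 isoforms, those of *Cd44* with apoE3 and apoE4, and those of *Itgav* and *Chst11* with apoE3, while *Bgn* lost each of its calls.

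By role, the 20 proteases and inhibitors held 4, 7 and 1 blocked calls with apoE2, apoE3 and apoE4, the 19 receptors and binding partners 2, 8 and 2, and the 10 tested genes of hyaluronan synthesis, binding and turnover 1, 4 and 1. The 21 tested enzymes of chondroitin sulfate chains held 1, 6 and 0, the 10 other proteoglycans 1, 3 and 2, and the 3 other link proteins and tenascins 0 in each comparison. With apoE3 all 7 called proteases and inhibitors and all 4 called hyaluronan genes were higher, whereas 1 of 6 chain enzymes, 1 of 3 proteoglycans and 2 of 8 receptors and partners were lower. Over all tested genes 1.73%, 11.7% and 3.30% were called with apoE2, apoE3 and apoE4, and with apoE3 1354 of 1990 calls were higher. No role was tested as a set.

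**Figure D5:**
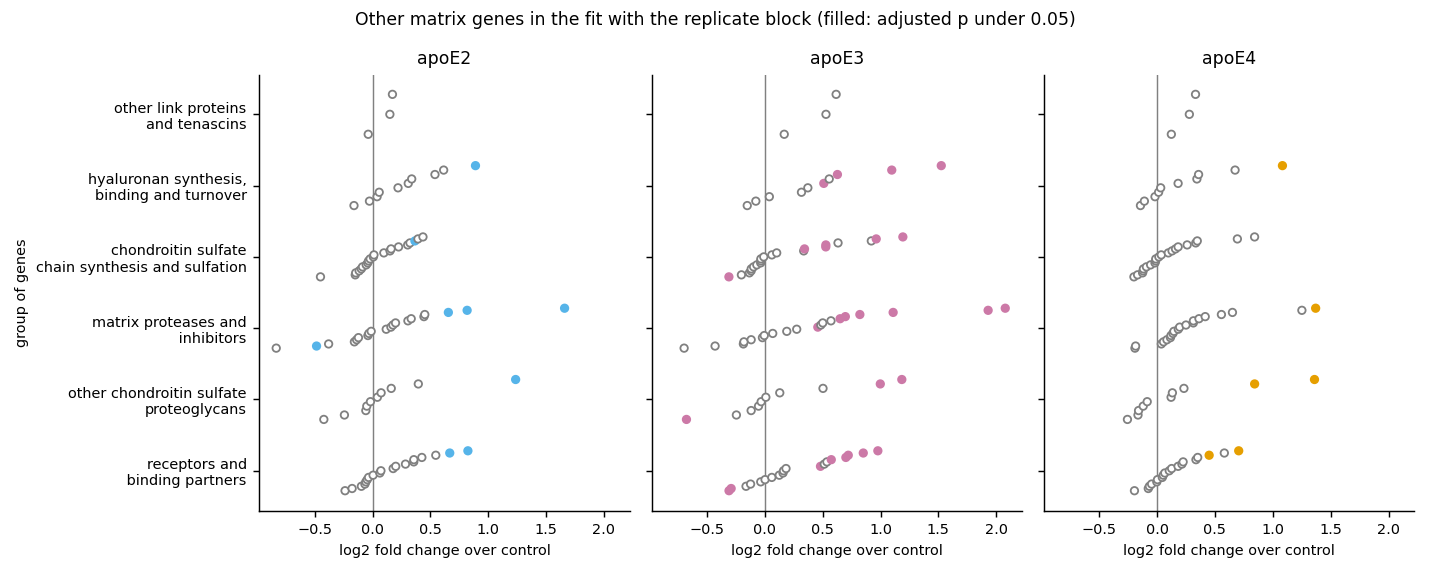
Log2 fold change over the control (horizontal axis) of the 83 tested genes of the matrix list, by role and isoform, blocked by replicate number, where filled points have an adjusted p under 0.05. Filled points number 9, 28 and 6, most of them right of 0, and the largest values are those of *Timp1*, at 1.66, 2.08 and 1.37.

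The tested genes whose log2 CPM followed *Tnc* most closely over the 16 libraries were *Lix1l*, *Tmem51* and *Slc39a1*, with Pearson's r of 0.984, 0.979 and 0.973. *Bcan* was most like *Ttc38* (0.942), *Mcc* (0.933) and *Sardh* (0.933), and *Acan* most like *Rps6kc1* (0.848), *Kcnk10* (0.837) and *Pak7* (0.831). *Acan* thus had no partner as close as that of *Tnc*. Libraries of 1 replicate number deviate together, so the 16 points are not independent and these values describe likeness only.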

How the data were processed

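RNA of 16 libraries, 4 independent cultures per group by the study's methods, was sequenced. The authors aligned reads with STAR to mm10 and deposited raw read counts per gene symbol made with HTSeq. The submitters' processing notes also name CASAVA, Picard, bedtools, DESeq2 and R 3.3.0, and the strand setting and annotation release are not given in the sources used here. Lines that name no gene (38.4 to 73.7% of reads) were left out.

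In R 4.3.3, edgeR 4.0.16 fitted all 16 libraries with TMM scaling and the quasi-likelihood test, after its expression filter (minimum count 10, total 15, proportion 0.7). Adjusted p-values are Benjamini-Hochberg values over 17038 genes, and CPM were TMM-scaled. The SE of each edgeR log2 fold change was derived as its absolute value over the square root of its quasi-likelihood F statistic. The count test replaced the per-gene test of the study's methods. Testing on simulated data preceded use.

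Libraries of 1 number deviated together from their group means (lowest r of 0.362, 0.766, 0.620 and 0.681 for numbers 1 to 4), so the numbers were taken as pairs, although libraries of different numbers reached −0.736 to 0.569, above the highest r within number 1 (0.552). The numbers come from the sample labels, which do not say what they share. The common dispersion was 0.132 without and 0.0178 with the block.

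Members, gene lists and tests were chosen with earlier results of these data known. All 10 members are named, with, from the matrix list, any gene passing edgeR's test without the block (0 did) and the 4 of smallest blocked p per isoform, and for *Tnc*, *Bcan* and *Acan* the 3 genes of highest Pearson's r. *Hapln3* was named as a neighbour. Isoform differences were printed for members that passed in any blocked comparison, a choice made after their values were seen. Alternatives were DESeq2 1.42.0 and its size factors, other filters, fits of only the 2 groups compared, the block, and leaving out each library. The blocked fits without 1 library or 1 number, for members and for the lists, were added after seeing the data.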

Additional observations from a re-analysis of the deposited data

Results flagged for a closer look

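The *Has2* level of control number 4, 2.41 CPM, lay far from the other 3 control libraries at 0.443 to 0.546 CPM, with a gap of 0.948 of the range of the group. It was the 1 such library in 40 sets of 4 (10 genes in 4 groups), and chance alone marks about 1 set in 20. With the replicate block, the response of *Hapln4* differed between apoE3 and apoE2 by a log2 value of −0.76, and that of *Tnc* between apoE4 and apoE3 by −0.99, each by the edgeR test of the difference itself.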

How the results depend on the processing

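The replicate block, which uses the shared replicate numbers as pairs, moved the members called from 0 to 2, 4 and 2 with apoE2, apoE3 and apoE4 and to 1, 0 and 1 for apoE3 over apoE2, apoE4 over apoE2 and apoE4 over apoE3, and DESeq2 with the block called 3, 4, 2, 2, 0 and 2. By the fold criterion edgeR with the block gave 2, 2 and 1 members, against 1.56%, 4.77% and 2.50% of all genes. DESeq2 with the block gave 2, 2 and 1, and DESeq2 without it 0, 1 (*Tnc*) and 1 (*Has2*). Of the other matrix genes, the block called 9, 28 and 6, DESeq2 with the block 10, 29 and 7, and DESeq2 alone 1 with apoE3. Leaving out 1 library, the fold criterion gave 0 to 2, 0 to 2 and 0 to 1 members, and without apoE3 4 *Tnc* no longer met it. Leaving out 1 library or 1 number from the blocked fits gave 0 to 3, 1 to 5, 0 to 3, 0 to 2, 0 to 1 and 1 to 2 members called in the order of the comparisons above, and 1 to 13, 15 to 30 and 4 to 8 of the other matrix genes with 1 library left out. Of 966 alternative values for the 42 folds given, 882 kept direction and side of the threshold, 23 newly passed it and 61 changed sign. Log2 values near 0 changed sign. *Vcan* for apoE3 over apoE2 was −0.0067 with no low-count filter, −0.064 with the block and −0.071 with DESeq2 and the block. *Hapln1* with apoE3 was −0.011 with DESeq2 size factors, −0.020 with no filter, −0.011 with a filter of 1 CPM in 8 libraries, −0.011 with DESeq2, −0.0039 with only the 2 groups fitted and −0.0066 with DESeq2 and the block. *Tnr* with apoE3 was −0.014 with DESeq2 and the block. Without 1 library, log2 values with apoE2 ran from −0.50 to 0.12 for *Bcan*, −0.20 to 0.069 for *Hapln1*, −0.58 to 0.51 for *Hapln4*, −0.28 to 0.20 for *Tnr* and −0.16 to 0.25 for *Ptprz1*. With apoE3 they ran from −0.35 to 0.020 for *Acan*, −0.088 to 0.35 for *Bcan*, −0.10 to 0.12 for *Hapln1* and −0.10 to 0.22 for *Tnr*, and with apoE4 from −0.075 to 0.36 for *Bcan*, −0.19 to 0.16 for *Hapln1* and −0.49 to 0.31 for *Hapln4*. For apoE3 over apoE2 they ran from −0.26 to 0.42 for *Vcan* and −0.30 to 1.00 (0.999) for *Has2*. For apoE4 over apoE2 they ran from −0.71 to 0.034 for *Vcan*, −0.52 to 0.41 for *Hapln4* and −0.36 to 1.23 for *Has2*, and for apoE4 over apoE3 from −0.76 to 0.94 for *Has2*. The cause of these changes was not tested. With 11 to 150 reads per library, *Has2* has the least precise values of the 10 genes.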
